A study of Homo sapiens with 42 samples.

Results

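The mRNA response of K562 cells to 1 h of imatinib (IM 1h) was compared with untreated cells (CTRL). The comparison rested on 6 mRNA libraries out of 42 libraries in the series, 3 biological replicates of each group, selected by their titles. K562 is an established line grown from a chronic myeloid leukaemia in blast crisis and carries the BCR-ABL1 fusion kinase. IM 1h cells received 1 μM imatinib for 1 h, and CTRL cells received no drug. The JTE 1h and KCl 1h groups received 5 μM JTE-607, an inhibitor of the nuclease CPSF73, or 110 mM KCl, an osmotic stress, for the same 1 h, and the IM 6h and IM 18h groups received imatinib for 6 and 18 h. Nuclear RNA libraries of CTRL and IM 1h, 3 of each, gave a second fraction. All groups are cultures of 1 cell line, so they describe that line and not patients.

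BCR-ABL1 is a tyrosine kinase that is always active, and imatinib occupies its ATP pocket. Among its outputs are STAT5, a transcription factor that enters the nucleus once phosphorylated, and the RAS-ERK cascade, which drives immediate early genes such as EGR1 and FOS. Many direct targets of both routes encode inhibitors of the same routes, among them the SOCS family for cytokine receptors and JAK kinases and the DUSP, SPRY and SPRED families for RAS and ERK. Their mRNAs are mostly short-lived, so they can follow the activity of the pathway within an hour.

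The 6 libraries held between 17855236 and 21756583 counts, and 18095 genes passed the filter on low counts. Replicates differed by more than sampling noise, with a chi-square per gene from 15.1 to 27.8. Levels are given as CPM, the count of a gene scaled by the TMM-adjusted size of its library. The levels of single markers in this paragraph are scaled by the unadjusted total instead. The libraries had the markers of K562: GATA1, the erythroid transcription factor, was at 131 to 195 CPM, TFRC, the transferrin receptor, at 1174 to 1612 CPM, and HBE1, the embryonic β-like globin, at 758 to 1497 CPM. Of 15 markers of other cell types, MS4A1 of B cells and CDH5 of endothelium had no count in any library, and CD3E, CD79A, NCAM1, CDH1 and ALB stayed at or below 0.277 CPM. LYZ reached 10.8 CPM, and EPCAM, an epithelial adhesion gene, was at 87.2 to 102 CPM in all 6 libraries. The summed level of the 8 of these markers that passed the filter, EPCAM among them, was 108 to 116 CPM in CTRL and 106 to 123 CPM in IM 1h.

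A pair of libraries stood apart from the other 4 in a way that the groups do not explain. CTRL replicate 2 and IM 1h replicate 1 had high levels of genes of the amino acid and integrated stress response, which were picked out after their values were seen. DDIT4, an inhibitor of mTORC1, was at 223 CPM in CTRL replicate 2 and 179 CPM in IM 1h replicate 1, against 3.33 to 5.57 CPM in the other 4 libraries. CHAC1, which degrades glutathione, was at 42.6 to 47.4 CPM in that pair and 0.276 to 0.562 CPM in the others. For 9 such genes, ATF3, ATF4, DDIT3 and ASNS among them, the lower of the pair exceeded the highest of the other libraries by 1.96 to 75.7-fold. Since the pair holds 1 library of each group, these genes were high within both groups. They were also high in the first replicate of other groups: DDIT4 was at 121 CPM in JTE 1h replicate 1, 196 CPM in KCl 1h replicate 1 and 72.4 CPM in IM 6h replicate 1, against 2.85 to 13.97 CPM in the other libraries of those groups. Of the 8 treated mRNA groups, 5 to 8 had replicate 1 highest for each of the 9 genes. ATF3, a stress-induced repressor, had a log2 fold change of -0.13 with a 95% interval from -2.32 to 2.06. Without the pair SOCS3 stayed called and CISH and ZFP36 did not, as given beside their values. No other gene was called by edgeR with or without the pair, and log2 fold changes without it were -1.56 for ID1 (adjusted p = 0.493), -0.65 for ITPRIP, -3.73 for EGR1, -0.96 for MYC, -0.77 for CSRNP1, 0.73 for CITED2, -1.41 for PIM1, -1.09 for SOCS1, -1.87 for SPRY4, -0.98 for DUSP5, -2.34 for FOS, -0.03 for HBE1 and -0.02 for ATF3. Its part in the contrasts with other treatments was not tested.

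**Figure D1:**
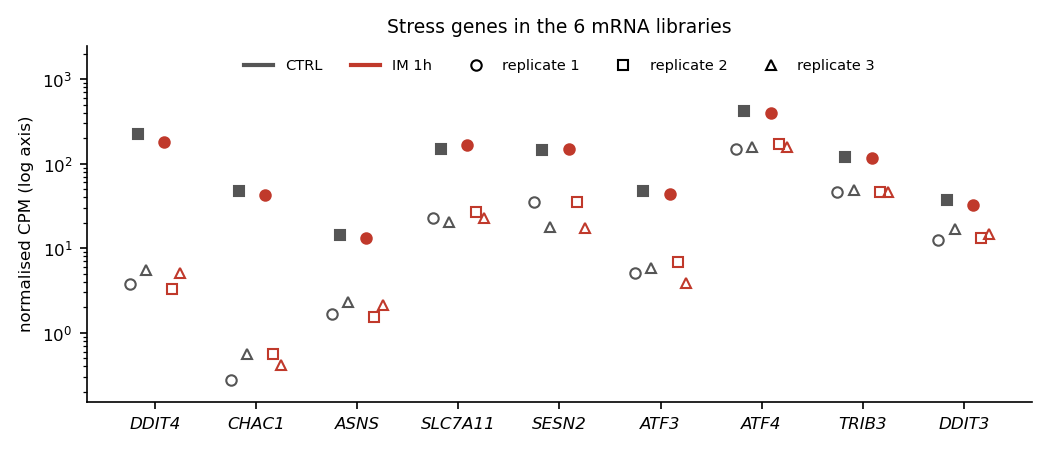
Level in CPM (log axis) of 9 stress response genes in the 3 CTRL and 3 IM 1h mRNA libraries, 1 point per library. The filled points are CTRL replicate 2 and IM 1h replicate 1, which lie above the other 4 libraries for all 9 genes, by 1.96-fold for DDIT3 and 75.7-fold for CHAC1 at the least.

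The question was which mRNAs had moved after 1 h of kinase inhibition. Genes were called at an adjusted p under 0.05 (edgeR quasi-likelihood test, Benjamini-Hochberg) and a log2 fold change beyond 0.6. SOCS3, CISH and ZFP36 fell, and no mRNA rose. The 3 calls are 0.0166% of the genes tested. At an unadjusted p under 0.05, 84 genes (0.464%) were lower and 122 (0.674%) higher, so the lack of higher calls is a statement about the corrected test. DESeq2 called 6 genes lower and 0 higher.

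SOCS3, the suppressor of cytokine signalling that binds JAK kinases and their receptors, lies on the minus strand of chromosome 17 at 78356778 to 78360077 (hg38). Its level was 27.6, 34.0 and 25.5 CPM in the CTRL libraries and 4.76, 3.33 and 2.07 CPM in the IM 1h libraries. The groups were far apart, with the highest IM 1h library at 4.76 CPM and the lowest CTRL library at 25.5 CPM. The mean in IM 1h was 11.7% of that in CTRL, an 8.62-fold fall, and the log2 fold change was -3.11 (SE 0.29, 95% interval -3.70 to -2.52, adjusted p = 2.3e-06). It was called in all 6 fits that left out 1 of these libraries, with log2 fold changes from -3.43 to -2.86, and without the pair of stress-high libraries (-3.30).

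CISH, the first identified SOCS family member and a textbook STAT5 target, lies on the minus strand of chromosome 3 at 50606490 to 50611831. It was at 58.8, 68.3 and 34.9 CPM in CTRL and at 22.1, 16.5 and 8.91 CPM in IM 1h. Replicate 3 was the lowest library of each group, and the groups did not overlap. The IM 1h mean was 29.3% of the CTRL mean (log2 fold change -1.77, SE 0.30, 95% interval -2.40 to -1.15, adjusted p = 0.0367). The call was lost, at log2 fold changes from -1.80 to -1.496, on leaving out CTRL replicate 1 (adjusted p = 0.213) or CTRL replicate 2 (adjusted p = 0.486), or of the treated libraries replicate 2 (adjusted p = 0.351) or replicate 3 (adjusted p = 0.489), and without the stress-high pair (-1.89, adjusted p = 0.237).

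ZFP36, or tristetraprolin, binds AU-rich elements in short-lived mRNAs and speeds their decay, and is itself an immediate early gene. It lies on the plus strand of chromosome 19 at 39406813 to 39409412. Its levels were 11.2, 12.1 and 10.9 CPM in CTRL and 5.96, 5.95 and 6.06 CPM in IM 1h, with an SD of 0.0608 CPM among the treated libraries. The log2 fold change was -0.93 (SE 0.14, 95% interval -1.23 to -0.63, adjusted p = 0.0114), a level of 52.5% of CTRL. Its size hardly depended on any 1 library (-0.98 to -0.89), but the call held on leaving out 1 of the 6, CTRL replicate 3 (adjusted p = 0.0199). Leaving out any other gave an adjusted p of 0.0629 (CTRL replicate 1), 0.117 (CTRL replicate 2), 0.0624, 0.137 and 0.0946 (treated replicates 1, 2 and 3). Without the stress-high pair it was 0.482 at a log2 fold change of -0.88.

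The libraries of CTRL and IM 1h also followed each other across the groups. The deviations from the group mean correlated at 0.831 between IM 1h replicate 1 and CTRL replicate 2, at 0.834 between IM 1h replicate 2 and CTRL replicate 1 and at 0.877 between the libraries numbered 3. In all 8 treated mRNA groups replicate 1 was likewise closest to CTRL replicate 2 and replicate 2 to CTRL replicate 1, and a list of read totals from the study gives those CTRL libraries each other's numbers. A fit with the replicate as a block and these numbers exchanged, chosen after seeing the data, called 5 genes (0.0276%), all lower. SOCS3 (-3.12, adjusted p = 5.46e-10), CISH (-1.78, adjusted p = 6.33e-05), ZFP36 (-0.93, adjusted p = 0.00222) and ID1 (-1.503, adjusted p = 6.33e-05) were called in that fit and in all 6 that left out a library. ITPRIP (-0.69, adjusted p = 0.0158) was called in it and in 1 of 6.

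The start of CISH is shown because 4 copies of the letters TTCNNNGAA, the palindrome that STAT dimers bind, stand in the 250 bases before it. The EGR1 window is shown beside it because it holds 1 such match and 2 CArG boxes, the motif of serum response factor, which ERK signalling acts on. Sequences are from RefSeq on GRCh38.p14 and run 5′ to 3′ on the strand of the gene, chr3:50611775-50612024 (minus) for CISH and chr5:138465229-138465478 (plus) for EGR1. Capitals mark the matches.
CISH: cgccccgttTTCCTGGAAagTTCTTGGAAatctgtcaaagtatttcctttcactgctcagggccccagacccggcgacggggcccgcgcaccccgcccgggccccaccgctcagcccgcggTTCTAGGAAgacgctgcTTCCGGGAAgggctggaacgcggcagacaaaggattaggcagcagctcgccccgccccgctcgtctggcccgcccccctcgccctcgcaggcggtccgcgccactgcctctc
EGR1: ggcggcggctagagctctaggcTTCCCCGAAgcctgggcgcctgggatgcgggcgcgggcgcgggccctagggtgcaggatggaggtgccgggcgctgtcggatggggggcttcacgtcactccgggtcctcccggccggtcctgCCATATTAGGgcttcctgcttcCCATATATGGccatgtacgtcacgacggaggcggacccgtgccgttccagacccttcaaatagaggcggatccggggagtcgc
The CISH matches start at -241, -230, -129 and -112 bases from the RefSeq gene start, in 2 close pairs. TTCNNNGAA, which reads alike on both strands, occurred in 6.78% of 27303 windows of this length and in 5.59% of the 11223 windows of tested genes. Of 10 STAT5 target genes with a window, CISH and BCL6 held it. CArG boxes occurred in 1.14% of all windows, and those of EGR1 start at -105 and -83. The windows of SOCS3, ZFP36 and ID1 held neither motif. The RefSeq start of SOCS3 lies 848 bases upstream of the start in the gene model used for its position above, so its window does not cover the bases before that second start. A match is a description of letters and no evidence of binding.

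Genes were then ranked by p among those with a mean of at least 10 CPM and no overlap between the 6 libraries. In all, 331 genes (1.83%) had every IM 1h library below every CTRL library and 433 (2.39%) had every one above. After SOCS3, ZFP36 and CISH, the ranking of lower genes went on with ITPRIP, ID1, EGR1, CSRNP1 and MYC. None of these was called in the main edgeR fit, which gave the calls above. With no filter on low counts, edgeR called ITPRIP, ID1, EGR1 and MYC. That setting stood apart, with 13 calls against 3 in the main fit. MYC (adjusted p = 2.63e-08 there), PIM1, FOS and SPRY4 were called in that setting alone. Why its adjusted p were so much lower was not tested.

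ITPRIP, which encodes a protein that binds the inositol trisphosphate receptor, was at 53.2, 65.7 and 52.0 CPM in CTRL and 38.4, 34.6 and 32.7 CPM in IM 1h (log2 fold change -0.69, SE 0.13, adjusted p = 0.116). ID1, an inhibitor of helix-loop-helix transcription factors, was at 24.6, 41.6 and 25.0 CPM and then at 15.6, 8.20 and 8.68 CPM (-1.49, SE 0.31, adjusted p = 0.243). In the main edgeR fit their unadjusted p were 2.56e-05 and 6.72e-05, and neither passed after the correction over all genes. DESeq2 called both (adjusted p = 0.00193 and 0.00303), as did the edgeR fits with a replicate block, under the same correction.

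EGR1, an immediate early zinc finger factor, had a large difference and a wide spread. Its CTRL libraries were at 40.9, 159 and 110 CPM and its IM 1h libraries at 20.8, 6.94 and 4.41 CPM. The log2 fold change was -3.28, with a 95% interval from -4.74 to -1.82 and an adjusted p of 0.447. Leaving out IM 1h replicate 1, one of the stress-high pair, gave -4.19, and leaving out CTRL replicate 2, the other, gave -2.83.

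MYC, the growth-promoting transcription factor and a target of many mitogen pathways, was at 277, 369 and 230 CPM in CTRL and 224, 156 and 104 CPM in IM 1h. The groups only just separated, with IM 1h replicate 1 below CTRL replicate 3, and the log2 fold change was -0.85 (95% interval -1.44 to -0.27, adjusted p = 1). CSRNP1, an immediate early nuclear protein, was at 19.0, 17.1 and 29.8 CPM and at 13.7, 13.7 and 14.9 CPM (-0.64, 95% interval -1.02 to -0.26).

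Of the genes ranked on the higher side, CITED2 came first. It encodes a transcriptional co-regulator that competes with HIF1A for CBP and p300 and has a role in blood stem cells. Its level was 66.1, 89.4 and 65.1 CPM in CTRL and 117, 101 and 117 CPM in IM 1h, 151% of the CTRL mean, without overlap. The log2 fold change was 0.60 (SE 0.20, 95% interval 0.19 to 1.01) and the adjusted p was 1. An alternative setting put its adjusted p under 0.05, but its log2 fold change there was not beyond 0.6. NSRP1, CEP135, NDUFA9, UPF3B, DNAJB9, MARCHF1 and ACCS followed, with log2 fold changes from 0.19 to 0.51, and no gene was called higher under any of the settings tried.

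**Figure D2:**
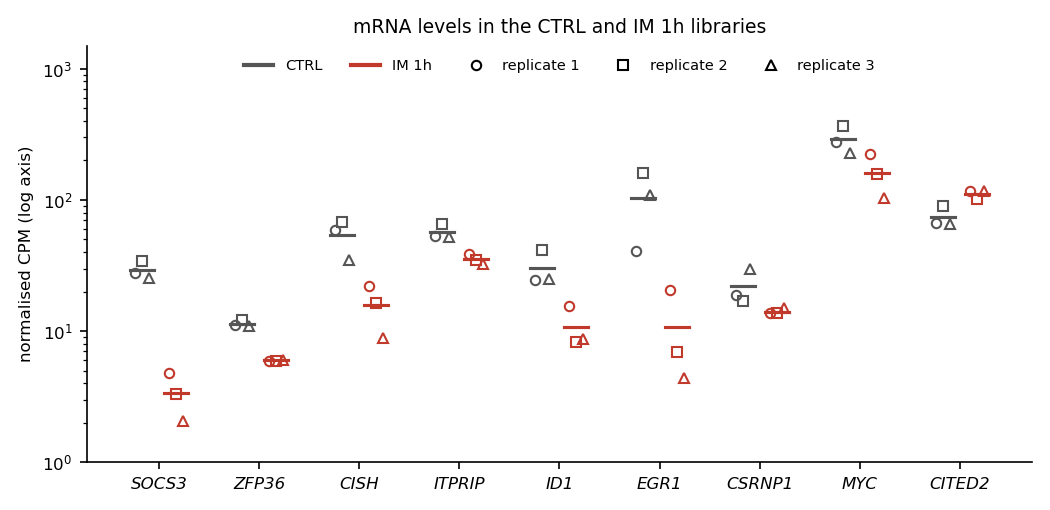
Level in CPM (log axis) of the 8 top-ranked lower genes and CITED2 in each of the 3 CTRL and 3 IM 1h mRNA libraries, 1 point per library. Only genes without overlap between the groups were ranked, so its absence here is set by the selection. EGR1 runs from 40.9 to 159 CPM in CTRL and from 4.41 to 20.8 CPM in IM 1h.

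STAT5 target genes were taken as a list of 13, of which 12 could be tested. OSM had at most 1 count per library and was left out. SOCS3 and CISH fell and 10 members did not pass the test. The log2 fold change was negative for 11 of the 12 members, with a median of -0.25 against 0.000636 over all genes tested, and in 4 of 12 every IM 1h library was lower than every CTRL library, against 1.83% of all genes. ID1, also a member, fell too in the block with exchanged numbers. The summed level of the members was 956 to 1473 CPM in CTRL and 614 to 961 CPM in IM 1h. A list picked with earlier results known carries no test of its own.

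The members of the SOCS family differed in size. SOCS1, which inhibits JAK kinases directly, was at 1.21, 1.26 and 1.56 CPM in CTRL and 0.471, 0.609 and 0.689 CPM in IM 1h (log2 fold change -1.17, 95% interval -2.07 to -0.27). SOCS2, which targets growth hormone signalling, overlapped between groups at 103, 131 and 74.2 CPM against 107, 87.6 and 62.9 CPM (-0.26, 95% interval -0.73 to 0.21). Neither was called (adjusted p = 1 for both).

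PIM1, a survival kinase induced by STAT5, ran from 273 to 675 CPM in CTRL and from 83.0 to 326 CPM in IM 1h. The groups overlapped and the interval was wide (log2 fold change -1.22, 95% interval -2.19 to -0.25). Leaving out CTRL replicate 2 gave -0.79, and leaving out treated replicate 1 or 3 gave -1.85 or -0.87. The block with exchanged numbers gave -1.28 with a narrower interval, -1.92 to -0.64 (adjusted p = 0.917). Its relative PIM2 had a log2 fold change of -0.25 (95% interval -0.58 to 0.09). BCL2L1, which encodes the survival factor BCL-xL, was at -0.12 (95% interval -0.48 to 0.24), and MCL1, another member of that family with a short-lived mRNA, at -0.34 (95% interval -0.56 to -0.12, adjusted p = 1). BCL6, a repressor that STAT5 holds down in other cells, was the only list member with a positive value, 0.47, at 2.26 to 4.09 CPM in CTRL and 3.37 to 6.75 CPM in IM 1h.

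The list of ERK feedback and output genes had 20 members, of which 16 were tested. DUSP2, DUSP4, DUSP6 and EPHA4 had at most 5 counts in any library, so DUSP6, the usual readout of ERK activity, was not usable in this line. None of the 16 was called, 15 had a negative log2 fold change (median -0.25), and 4 had no overlap and were lower in IM 1h, against 1.83% of all genes. By unadjusted p under 0.05, 3 were lower and 0 higher, against 0.464% and 0.674% of all genes, and DESeq2 called 0. With no filter on low counts edgeR called SPRY4, in that setting alone.

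SPRY4, an inhibitor of RAS activation, was at 37.8, 52.1 and 50.0 CPM in CTRL and 32.3, 17.8 and 6.20 CPM in IM 1h. Its IM 1h libraries were spread widely, and the log2 fold change of -1.32 had a 95% interval from -2.46 to -0.18. Leaving out IM 1h replicate 3 gave -0.91, and leaving out IM 1h replicate 1 gave -1.96. DUSP5, a nuclear ERK phosphatase, was at 2.98, 3.25 and 4.79 CPM and at 1.36, 1.31 and 2.62 CPM (-1.05, 95% interval -1.93 to -0.17). SPRY2, a second Sprouty protein, had the narrowest difference of the 3 at -0.44 (95% interval -0.82 to -0.06). SPRED1, ETV4 and ETV5 had log2 fold changes from -0.18 to -0.04.

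Immediate early genes formed a list of 30, of which 26 were tested. EGR2, EGR4, KLF2 and CCN2 had at most 5 counts per library. ZFP36 fell and the others did not pass the test. DESeq2 also called EGR1, and edgeR with no filter on low counts also called EGR1, FOS and MYC. In the main fit 22 had a negative log2 fold change (median -0.26), and 4 had no overlap and were lower in IM 1h, against 1.83% of all genes. FOS, a component of AP-1, was low in untreated cells at 0.827, 3.20 and 2.73 CPM and was at 1.05, 0.234 and 0.459 CPM after imatinib, with overlap (-1.98, 95% interval -3.28 to -0.69). IER2 had a log2 fold change of -0.55 (95% interval -0.91 to -0.18), KLF10, an early TGF-β gene, of -0.62 (95% interval -1.34 to 0.11) and JUNB of -0.42 (95% interval -0.94 to 0.11). GADD45B, with 0.61 (95% interval -0.67 to 1.89), had the highest value of the list at a level near 1 CPM.

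The other lists covered what the drug acts on, what the cells are and how their RNA is made, and none but ZFP36 among the 20 mRNA decay factors tested was called. BCR was at 142, 140 and 151 CPM in CTRL and 132, 126 and 148 CPM in IM 1h (log2 fold change -0.09, 95% interval -0.35 to 0.17), and ABL1 at -0.05 (95% interval -0.34 to 0.25), so the mRNA of the drug target itself showed no detectable difference. These counts do not separate the fusion from the normal genes. The 30 signalling partners of BCR-ABL1 tested ran from -0.12 to 0.10, and 28 of their intervals lay within 0.6 of 0.

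Erythroid genes, which K562 cells raise when they differentiate, did not separate the groups at 1 h. All 32 were tested, 0 were called by edgeR and 0 by DESeq2, 0 passed an unadjusted p under 0.05 in either direction, 0 were non-overlapping, and log2 fold changes ran from -0.19 to 0.14. HBE1 was at 1089, 1486 and 787 CPM in CTRL and 1473, 1085 and 754 CPM in IM 1h. The libraries spanned nearly the same range in both groups, and the 95% interval ran from -0.81 to 0.77, or from -0.69 to 0.65 in the block with exchanged numbers. For 17 of the 32 genes the interval lay within 0.6 of 0. HBG1 and HBG2 are near-identical and share reads, so their values (0.02 and 0.03) are uncertain.

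The factors of RNA processing were measured more tightly. For the 26 genes of 3′ end processing and termination, log2 fold changes ran from -0.09 to 0.13, and for the 29 splicing regulators from -0.13 to 0.25. Every interval of both lists lay within 0.6 of 0, compared with 9720 of the 18095 genes tested.

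**Figure D3:**
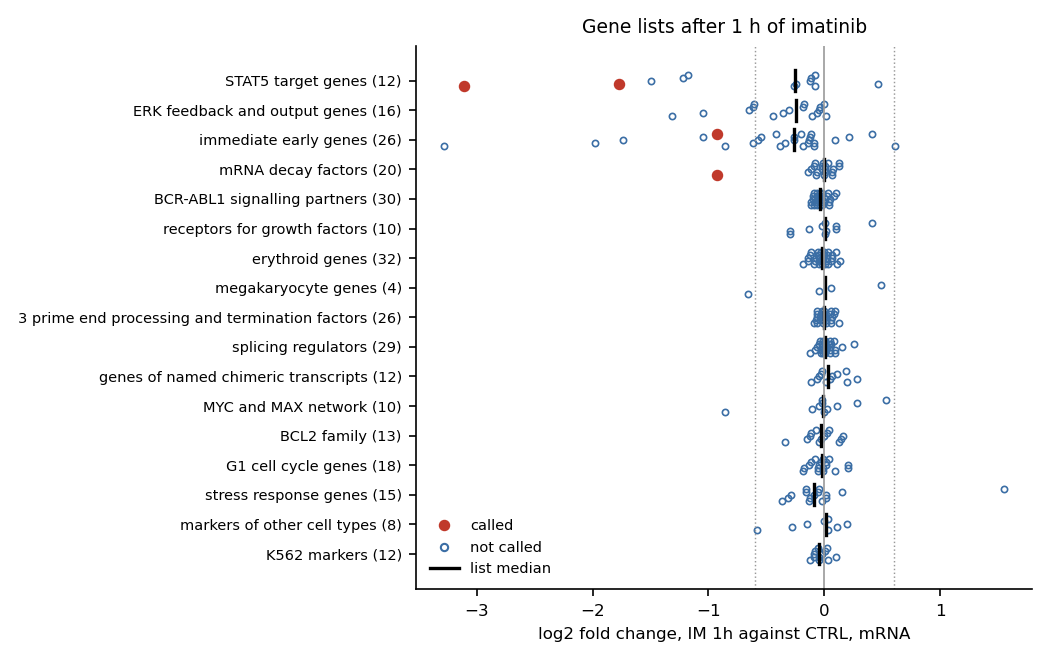
log2 fold change of IM 1h against CTRL in mRNA for the tested members of 17 gene lists, 1 point per gene, with the list median as a bar and dotted lines at the fold threshold of 0.6. Red points are called genes (SOCS3, CISH and ZFP36, which stands in both the immediate early and the mRNA decay list), and the medians of the STAT5, ERK and immediate early lists lie at -0.25, -0.25 and -0.26 while the erythroid median lies at -0.02.

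Nuclear RNA gave the same contrast in other libraries. Without regard to replicate number 10 of 21929 genes (0.0456%) were called, 9 lower (0.041%) and 1 higher (0.00456%). The nuclear replicate numbers were taken to pair the libraries, whose deviations correlated at 0.821, 0.373 and 0.774 for numbers 1, 2 and 3. With the replicate as a block 69 genes (0.315%) were called, 54 lower (0.246%) and 15 higher (0.0684%). The count with the block ran from 30 to 68 when 1 library was left out, and was 30 without CTRL replicate 3, 32 without IM 1h replicate 3 and 44 without CTRL replicate 2. Of the 54 lower genes, 36 were tested in mRNA, where 31 had a negative log2 fold change and 15 were lower without overlap, against 1.83% of all genes in mRNA. Of the 15 higher genes all were tested in mRNA, where 13 had a positive value and 1 was higher without overlap, against 2.39% of all genes.

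The 3 genes that fell in mRNA also fell in the nucleus in both fits. SOCS3 was at 48.5, 52.3 and 64.2 CPM in nuclear CTRL and at 5.92, 6.57 and 4.54 CPM in nuclear IM 1h (log2 fold change -3.27, SE 0.20). CISH was at 86.5, 116 and 133 CPM and at 21.5, 30.6 and 23.0 CPM (-2.15, SE 0.19). ZFP36 was at 19.8, 19.5 and 15.99 CPM and at 8.94, 9.001 and 9.32 CPM (-1.02, SE 0.14). In these nuclear libraries DDIT4, high in 1 library of each mRNA group, was at 64.8, 64.0 and 26.6 CPM in CTRL and at 23.6, 140 and 15.7 CPM in IM 1h, another pattern over the replicate numbers. SOCS3, CISH and ZFP36 were each called in all 6 fits that left out a nuclear library, so the calls of CISH and ZFP36 that depended on single mRNA libraries did not do so in this fraction.

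ITPRIP, ID1 and CITED2, ranked but not called in the main mRNA fit, were called in nuclear RNA. ID1 was at 61.6, 61.1 and 59.6 CPM in nuclear CTRL and at 14.5, 17.5 and 14.4 CPM in nuclear IM 1h (log2 fold change -1.97, SE 0.25, adjusted p = 0.00691), and the nuclear CTRL libraries lay close together. ITPRIP fell by 0.82 on the log2 scale (adjusted p = 0.00943). CITED2 rose from 53.9, 56.6 and 59.2 CPM to 90.4, 94.8 and 103 CPM (0.77, adjusted p = 0.014). EGFL7, the host gene of miR-126 and named here after its values were seen, was at 88.5, 95.8 and 77.3 CPM in nuclear CTRL and at 57.1, 53.5 and 43.4 CPM in nuclear IM 1h (-0.76, adjusted p = 0.0323), while in mRNA its groups overlapped at a log2 fold change of -0.22. Without the block, the CITED2 call held in 1 of 6 fits with a library left out and that of ID1 in 3 of 6, whereas with the block both held in all 6.

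With the block more immediate early and STAT5 target genes were called. FOS was at 3.67, 3.96 and 1.58 CPM in nuclear CTRL and at 0.323, 0.652 and 0.690 CPM in nuclear IM 1h (log2 fold change -2.42, SE 0.31). MYC fell by 0.88, JUNB by 0.71, CSRNP1 by 0.64 and DUSP5 by 1.21 on the log2 scale, while BCL6 rose by 1.20. These calls held in all 6 fits with a library left out. PIM1 (-1.27) lost its call without CTRL replicate 3, SOCS1 (-0.89) held in 2 of 6, and EGR1 (-3.10) and SPRY4 (-1.25) held in 0 of 6. By list, 5 of 12 STAT5 target genes fell and 1 rose, 2 of 16 ERK genes fell, 5 of 25 immediate early genes fell, and 0 of 32 erythroid genes were called, against 0.246% of all genes lower and 0.0684% higher.

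Whether a response differed between the fractions was tested as an interaction. None of 19420 genes was called by edgeR (0%), DESeq2 called 0, and at an unadjusted p under 0.05 289 genes (1.49%) were lower and 106 (0.546%) higher. For SOCS3 the nuclear response minus the mRNA response was -0.16 (95% interval -0.83 to 0.52), for CISH -0.37 (95% interval -1.37 to 0.63), for ZFP36 -0.09 (95% interval -0.48 to 0.31) and for CITED2 0.17 (95% interval -0.20 to 0.55). The genes called in the nucleus only are therefore not shown to respond differently in the 2 fractions.

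**Figure D4:**
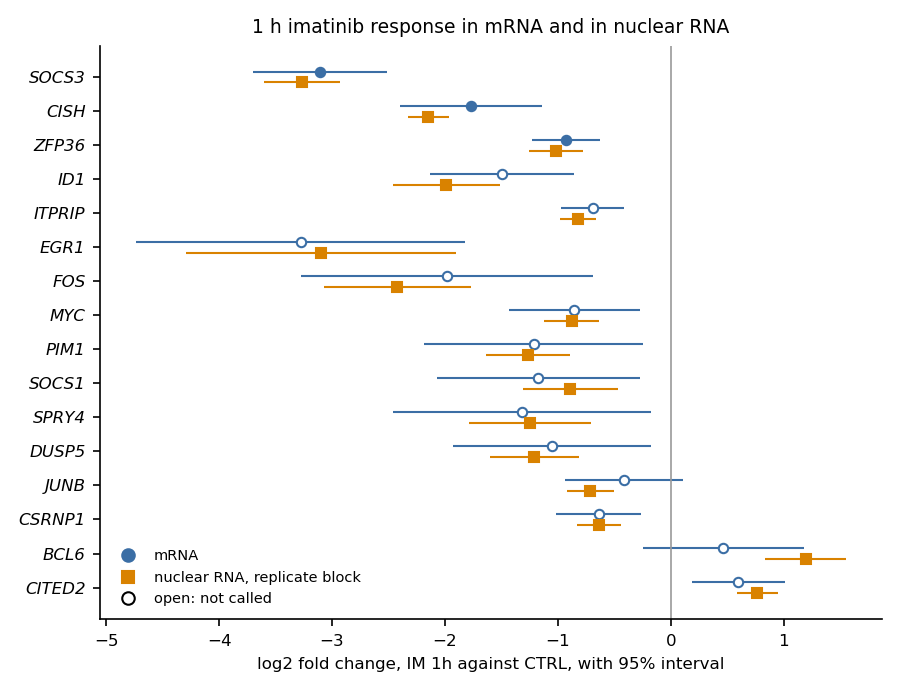
log2 fold change of IM 1h against CTRL with its 95% interval in mRNA and in nuclear RNA (fit with the replicate block) for 16 genes. Filled symbols are called, and values run from SOCS3 (-3.11 and -3.27) to CITED2 (0.60 and 0.77). The 16 were picked by hand from the nuclear calls, so their shared sign in mRNA is no result. Over all nuclear calls tested in mRNA, 31 of 36 lower and 13 of 15 higher genes shared the sign.

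The next question was whether the levels after 1 h of imatinib differed from those after other agents given for 1 h. IM 1h was compared directly with JTE 1h, and 197 genes (1.09%) were called, 121 higher (0.669%) and 76 lower (0.42%) in IM 1h. SOCS3 was lower in IM 1h by 1.98 on the log2 scale (SE 0.28, adjusted p = 0.000434), and all 6 fits with a library left out called it. The JTE 1h libraries, at 14.4, 10.2 and 15.2 CPM, lay between those of IM 1h and CTRL. CITED2, at 53.8, 39.5 and 27.7 CPM in JTE 1h, was higher in IM 1h by 1.47 (SE 0.20, adjusted p = 0.000303), again in all 6. Its JTE 1h libraries lay below those of CTRL, at 65.1 to 89.4 CPM, so part of this difference is a lower level in JTE 1h.

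ZFP36 did not separate the drugs: its JTE 1h mean was 5.33 ± 0.70 CPM (SD, n = 3) against 5.99 ± 0.06 CPM in IM 1h, and the difference was 0.17 (95% interval -0.14 to 0.48). CISH was at 28.9 ± 10.1 CPM in JTE 1h and the difference of -0.87 (95% interval -1.49 to -0.25) was not called (adjusted p = 0.247). Mean ID1 was 14.05 CPM in JTE 1h and 21.03 CPM in KCl 1h against 10.82 CPM in IM 1h. Mean SOCS1 was 0.473 CPM in JTE 1h and 0.333 CPM in KCl 1h against 0.590 CPM in IM 1h. EGR1 was lower in IM 1h by 2.91 (adjusted p = 0.0428), but only 1 of 6 fits with a library left out called it. A fit of these 6 libraries alone called 1 gene, in place of 197.

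Against KCl 1h, 1153 genes (6.37%) were called, 684 higher (3.78%) and 469 lower (2.59%) in IM 1h. KCl 1h replicates 2 and 3 were sequenced to 62953314 and 42474454 counts, more than any IM 1h library. ZFP36 was at 15.01, 13.94 and 16.02 CPM in KCl 1h, where CTRL was at 10.9 to 12.1 CPM, and the difference from IM 1h was -1.32 (SE 0.14, adjusted p = 1.31e-06). FOS was at 34.1, 15.3 and 42.1 CPM in KCl 1h against 1.05 CPM or less in IM 1h (-5.73, SE 0.58). SOCS3 (-2.49), CISH (-1.31), EGR1 (-3.22), JUNB (-1.38), IER3 (-2.44) and FOSB (-4.01) were also lower in IM 1h, and each held in all 6 fits with a library left out. In all, 11 of 26 immediate early genes were called lower than in KCl 1h, against 2.59% of all genes. This contrast does not separate a fall under imatinib from a rise under KCl. Mean FOS was 30.51 CPM in KCl 1h, 2.25 CPM in CTRL and 0.58 CPM in IM 1h, and mean JUNB 46.65, 23.84 and 17.85 CPM. Against CTRL, JUNB (-0.42), IER3 (-0.61) and FOSB (-0.57) were not called in IM 1h.

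Later imatinib samples gave the levels after 1 h, in contrasts from which CTRL drops out. The untreated libraries carry no time label, and the series lists no untreated culture of 6 or 18 h. An effect of imatinib therefore cannot be told apart from time in culture in these contrasts. Between IM 1h and IM 6h 1483 genes (8.2%) were called, 828 higher and 655 lower, and between IM 1h and IM 18h 5301 (29.3%), 2958 higher and 2343 lower. The mean levels of SOCS3 and ZFP36 in IM 1h lay near those in IM 6h and above those in IM 18h. SOCS3 was at 2.83 ± 1.14 CPM in IM 6h and 2.14 ± 0.38 CPM in IM 18h, differences from IM 1h of -0.23 (95% interval -0.86 to 0.40) and -0.65 (95% interval -1.31 to 0.01). ZFP36 was at 6.02 ± 0.51 and 4.64 ± 1.37 CPM, differences of 0.00 (95% interval -0.30 to 0.31) and -0.37 (95% interval -0.68 to -0.06), neither of them called.

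Other STAT5 target genes were lower at the later times than at 1 h. SOCS2 was at 20.4 ± 3.80 CPM in IM 6h and 18.3 ± 1.38 CPM in IM 18h, below IM 1h by 2.07 and 2.23 on the log2 scale (SE 0.24 for both). PIM2 was at 36.9 ± 5.43 and 27.5 ± 5.31 CPM (-1.72 and -2.14). BCL2L1 was lower in IM 6h by 1.49. All of these held with each library left out.

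CISH fell further, to 7.87 ± 1.28 CPM in IM 6h and 7.63 ± 0.81 CPM in IM 18h. The step to IM 6h (-1.01, adjusted p = 0.0348) held in 1 of 6 fits with a library left out, and that to IM 18h (-1.05) was lost without IM 1h replicate 1. CITED2 rose further by 0.86 and 1.13, in all 6 fits at both times. Of the list of ERK genes, 8 of 16 were lower in IM 6h and 12 of 16 in IM 18h than in IM 1h, against 3.62% and 12.9% of all genes. Erythroid genes were called in these contrasts, 14 of 32 higher in IM 6h and 27 of 32 higher in IM 18h, against 4.58% and 16.3% of all genes. HBE1 reached 4234 ± 1133 CPM in IM 18h.

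**Figure D5:**
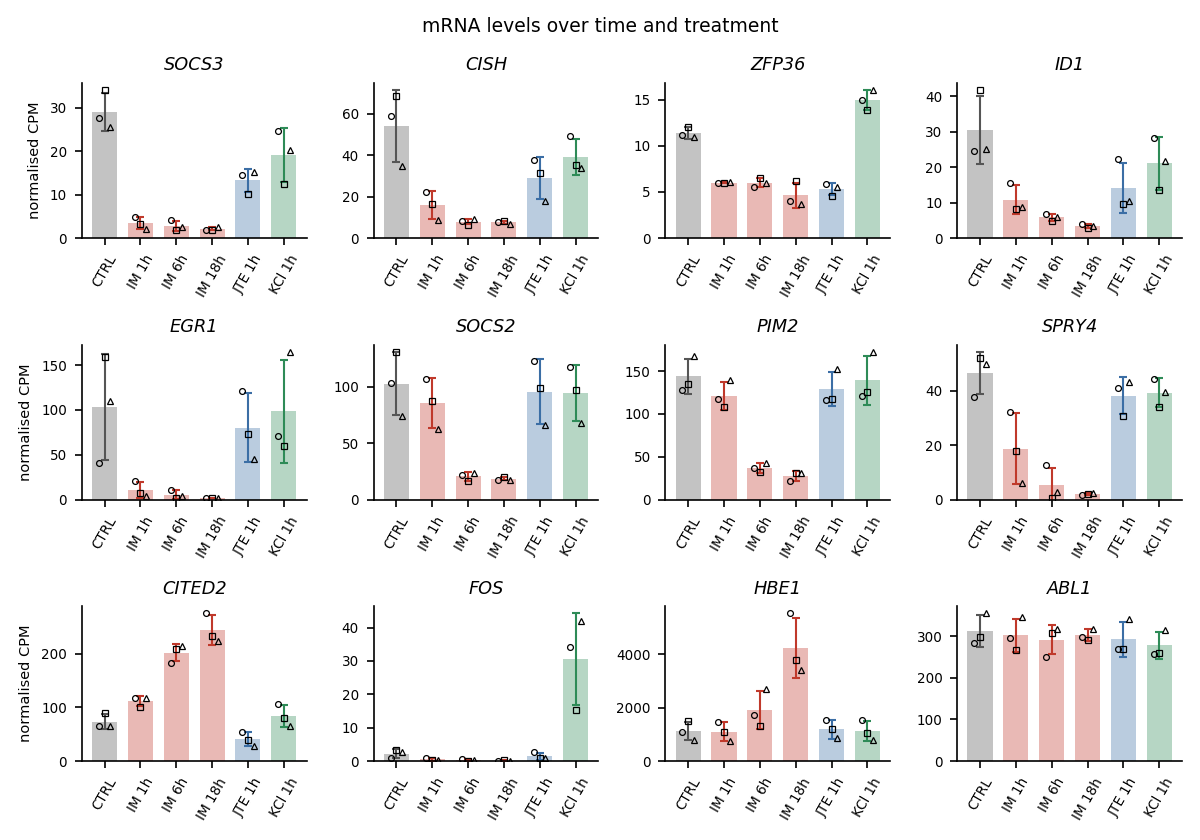
Mean level in CPM (bars, from 0) with SD as error bar and the 3 libraries as points, for 12 genes in CTRL, IM 1h, IM 6h, IM 18h, JTE 1h and KCl 1h. SOCS3 and ZFP36 lie near their IM 6h level at 1 h (3.38 and 2.83 CPM, 5.99 and 6.02 CPM), whereas SOCS2 goes from 85.8 CPM in IM 1h to 20.4 CPM in IM 6h.

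The precision of the main fit, whose spread was estimated over 27 mRNA libraries without a replicate block, sets what a null means. Over all genes tested, the median width of the 95% interval to either side was 0.449 on the log2 scale, and 0.284 for the 8776 genes with a mean of at least 10 CPM. Of those 8776, only 15 differed by more than 0.6 on that scale. The median absolute log2 fold change was 0.0820 over all genes and 0.0432 over the more abundant ones.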

How the data were processed

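Gene counts were analysed for 6 mRNA libraries of K562 cells (CTRL and IM 1h), fitted with the other mRNA libraries of the series, and for nuclear RNA. The authors trimmed and deduplicated the reads, aligned them to hg38 with STAR, kept unique alignments and deposited raw counts of read pairs per gene made with featureCounts. No strand option was given, so antisense reads count for a gene, and near-identical genes lose shared reads. Duplicate removal without molecular identifiers can lower abundant transcripts. The annotation release is not given in the sources used here. Of 58243 gene IDs, 57532 are in GENCODE 44, and 41836 have a symbol.

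CPM values were computed with TMM-scaled library sizes, except those of single cell type markers, which used unadjusted totals. The test was edgeR's robust quasi-likelihood test (version 4.0.16, R 4.3.3) after filterByExpr and TMM scaling, in 1 fit of 27 mRNA or 15 nuclear libraries with a term per group. Calls needed an absolute log2 fold change above 0.6 and an adjusted p (Benjamini-Hochberg) below 0.05. Standard errors and 95% intervals came from the quasi-likelihood F statistics, and intervals treat the 3 libraries of a group as biological replicates, as the study describes them. The nuclear minus mRNA response was an interaction in 12 libraries. Scripts were tested on simulated counts.

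Groups came from sample titles. Genes named were the called genes, members of the STAT5, ERK and immediate early lists, BCR, ABL1, globins, the 8 top-ranked genes each way and 2 members of each other list. The members, lists and tests were chosen with earlier results of these data known. Alternatives were DESeq2 1.42.0, RLE and upper quartile scaling, other filters, no fold threshold, only the groups compared, dispersion that is not robust, leaving out genes over 1% of the counts, a replicate block and leaving out each library. After seeing the data, 2 surrogate variables (sva 3.50.0) leaving out both stress-high libraries and a block with CTRL numbers 1 and 2 exchanged were added. In nuclear RNA, deviations of same-numbered CTRL and IM 1h libraries from their group means correlated at 0.821, 0.373 and 0.774, so those numbers were taken to pair the libraries.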

Additional observations from a re-analysis of the deposited data

Results flagged for a closer look

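Direct contrasts of later imatinib samples with IM 1h, in which CTRL takes no part, picked out the results in which the level at a later time differed from that at 1 h. No untreated culture of 6 or 18 h is listed, so time in culture cannot be told apart from the drug here. The counts of called genes were 1483 for IM 6h and 5301 for IM 18h. In IM 6h, 5 of 12 STAT5 target genes and 8 of 16 ERK feedback and output genes were lower than in IM 1h, against 3.62% of all genes. Of the 26 immediate early genes 1 was lower and 1 higher, shares near those of all genes (3.62% and 4.58%). In IM 18h, 8 of 12 STAT5 target genes, 12 of 16 ERK genes and 9 of 26 immediate early genes were lower, against 12.9% of all genes. The 4 of 26 immediate early genes that were higher are a share near that of all genes, 16.3%.

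Among the STAT5 target genes in IM 6h, the log2 difference from IM 1h was -2.07 for SOCS2, -1.72 for PIM2, -1.55 for CCND2, -1.49 for BCL2L1 and -1.01 for CISH. CCND2 encodes cyclin D2. Among the ERK genes it was -1.83 for ETV5, -1.80 for FOSL1, -1.79 for SPRY4, -1.29 for SPRED1, -0.99 for ETV4, -0.85 for DUSP7 and -0.79 for SPRED2. JUND was at -0.68 and CSRNP1 at -0.72. The anti-proliferative gene BTG2 was higher by 1.63 and CITED2 by 0.86.

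In IM 18h the difference from IM 1h was -2.71 for EGR1, -1.63 for ID1, -1.11 for CSRNP1, -1.05 for CISH, -0.73 for MYC, -0.69 for MARCHF1 and -0.66 for ITPRIP. CITED2 was higher by 1.13 and ACCS by 0.91. MARCHF1 and ACCS were ranked on the higher side at 1 h, with log2 fold changes of 0.51 and 0.38 against CTRL. The MYC difference held in 2 of 6 fits with a library left out, that of CISH was lost without IM 1h replicate 1 (-0.76), and that of EGR1 also (-1.83).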

How the results depend on the processing

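No called gene changed sign under any alternative, while 24 named genes without a call did in some setting (58 values), such as ATF3 (-1.89 to 1.71) and HBE1 (-0.29 to 0.23). In mRNA, IM 1h against CTRL gave 3 calls, and 6 with DESeq2, 13 with no filter on low counts, 5 with the replicate block by number, 5 with CTRL numbers 1 and 2 exchanged in that block, 1 in the 6 compared libraries alone, 1 without both stress-high libraries and 1 to 3 with a library left out (CTRL replicates 1 and 2 and treated replicates 2 and 3 each gave 1). SOCS3 was called in all 20 settings, CISH in 14 and ZFP36 in 13, and the 13 genes called in any setting were all lower. Against JTE 1h the 197 calls became 44 with a minimum of 10 on the mean CPM, 1 in the compared libraries alone and 62 to 194 with a library left out (62 without JTE 1h replicate 3). Against KCl 1h the 1153 calls became 1743 with no filter, 113 with the CPM minimum, 613 in the compared libraries alone and 865 to 1237 with a library left out. The 1483 calls of IM 6h became 747 with the CPM minimum, 2361 with no fold threshold and 983 to 1535 with a library left out (983 without IM 6h replicate 3). The 5301 of IM 18h became 2284 with the CPM minimum and 4267 to 5417 with a library left out. In nuclear RNA the 10 calls became 17 with upper quartile scaling, 31 with DESeq2, 48 with no filter, 69 with the replicate block and 4 to 9 with a library left out. The interaction gave 2 calls with no filter and otherwise 0. The CPM minimum tests fewer genes and the compared-libraries fit uses fewer libraries, and the cause of the other moves was not tested.

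The mRNA replicate numbers as given did not pair the libraries: same-numbered CTRL and IM 1h deviations correlated at -0.237, -0.266 and 0.877. In the fit with the block by those numbers, ID1 (adjusted p = 0.0189) and ITPRIP (adjusted p = 0.0404) joined the calls, as in the block with exchanged numbers, whose count was 4 to 5 with a library left out. Of 1776 values of named genes under the alternatives, 13 lost and 15 gained a call, and 34 others moved by more than the standard error in the main fit. Of 323 list medians 20 moved by more than the SD of the list medians of the IM 1h replicates. Depth limits the low genes most, since OSM, EGR2 and the DUSP genes left out held at most 5 counts per library.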
